A study of Mus musculus with 4 samples.

Results

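Among 7 genes of ATP-driven drug efflux pumps, a single one, Abcb1b, stood apart in mouse embryoid bodies that differentiated in the presence of the KDM6 inhibitor GSK-J4. The other 6 each differed from every control by 0.43 or less on the log2 scale, and none was called by the rule of size below. The 7 genes were Abcb1a, Abcb1b, Abcc1, Abcc3, Abcc4, Abcc5 and Abcg2, out of 22180 genes with a single gene symbol on the array. They were found by symbol in the platform annotation, each has 1 probe set, and for all 7 the symbol equalled the RefSeq symbol of its gene identifier. The set was chosen with the GSK-J4 values known, and Abcb1b was picked out for its difference, so its level is described here and not tested.

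The samples were embryoid bodies (EBs, clumps of stem cells at the start of differentiation) of R1, a mouse embryonic stem cell line, and each treatment has 1 array, 4 in all. Per the labels, cells freed of feeder cells were kept without LIF, the cytokine that holds stem cells undifferentiated, for 18 h with 1.88 µM GSK-J4, with 1.88 µM GSK-J5, with DMSO, or in EB medium alone. GSK-J4 is named a KDM6-specific inhibitor in the labels, and GSK-J5 served as its control compound at the same dose and time. KDM6 enzymes remove methyl groups from lysine 27 of histone H3, a mark of repressed genes. No array has a replicate, so no difference below has a replicate check, and no p-value is given. Whole EBs were dissociated and their RNA pooled, so more cells of a type and more RNA per cell cannot be told apart.

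ABC transporters bind and hydrolyse ATP to move substrates across membranes. Abcb1a and Abcb1b are the pair of rodent genes that together correspond to the single human ABCB1 gene, which encodes P-glycoprotein, an exporter of many hydrophobic drugs. Genes of the Abcc group encode multidrug resistance proteins that export organic anions, glutathione conjugates and nucleotides. Abcg2 encodes the breast cancer resistance protein, whose dye export defines the side population of many stem cell preparations.

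Values are RMA expression values on a log2 scale, where a difference of 1 is a 2-fold difference. The level of a probe set depends on its probes, so levels are compared between arrays and not between genes. Genes averaging less than 6.59, the 40th percentile, were set aside as dim and the rest are called counted. Of the 22180 genes 13308 were counted, and of the pumps 6 of 7, all but Abcc3. The margin is the difference of GSK-J4 from the closest of the GSK-J5, DMSO and medium arrays, and is 0 where GSK-J4 falls between them. A counted gene with a margin of 0.585 (1.5-fold) or more was called higher, and one as large with a negative sign was called lower.

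Abcb1b read 10.21 in GSK-J4, against 8.68 in GSK-J5, 8.63 in DMSO and 8.81 in medium. The 3 controls lay within 0.18 of each other, and the GSK-J4 array stood above all of them. The difference was 1.53 from GSK-J5, a 2.89-fold higher level, 1.58 from DMSO (2.99-fold) and 1.40 from medium (2.64-fold). With a margin of 1.40 Abcb1b was at place 20 of the 13308 counted genes, ordered from the highest margin. GSK-J5, at the matched dose, differed from DMSO by 0.05 and from medium by −0.13. For a sense of scale, 2334 genes had a mean within 0.5 of that of Abcb1b, and in 95% of them the 3 controls spanned at most 0.29.

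Of the 6 counted pumps 1 was called higher and 0 lower. Over all counted genes 2.21% were called higher and 0.842% lower, but the set was chosen on this contrast, and nothing is read from its share. By the plain rule of a 2-fold difference between 2 arrays, Abcb1b was again the only pump called. Of all counted genes 0.827% were higher than GSK-J5 by that rule, 0.842% higher than DMSO and 0.744% higher than medium, and the shares lower were 0.143%, 0.233% and 0.278% against these 3 controls. Counting any amount, 3 of the 6 pumps lay above all 3 controls and 2 below, where 38.0% of all counted genes lay above and 35.5% below.

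**Figure D1:**
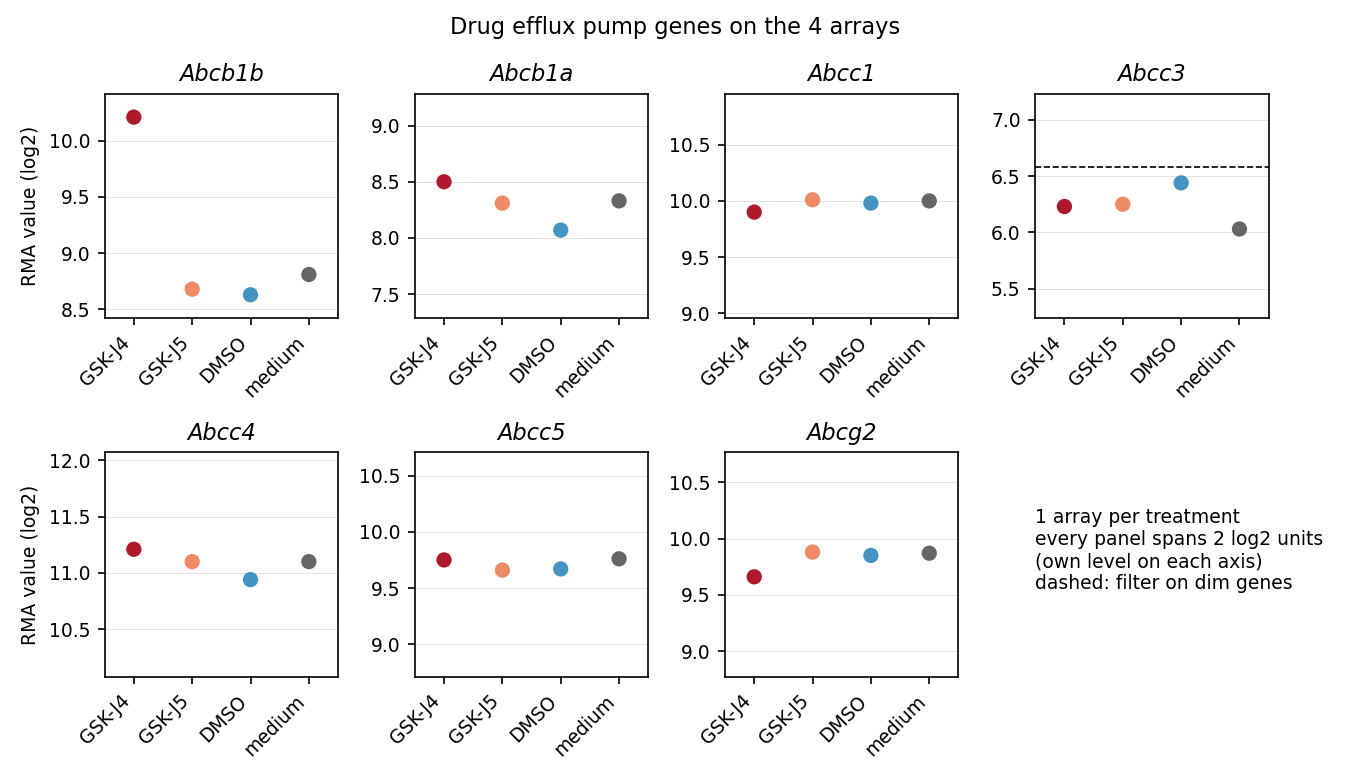
RMA value (log2) of each drug efflux pump gene on the 4 arrays, 1 point per array and 1 panel per gene; every panel spans 2 log2 units at its own level, and the dashed line in the Abcc3 panel is the filter on dim genes. Abcb1b reads 10.21 in GSK-J4, and its controls 8.63 to 8.81, while the points of the other 6 genes lie within 0.43 of each other.

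Abcb1a, the other P-glycoprotein gene and in mice the main one of the blood-brain barrier, read 8.50 in GSK-J4, against 8.31 in GSK-J5, 8.07 in DMSO and 8.33 in medium. The GSK-J4 array was the highest, but by a margin of 0.17, which is less than the 0.26 between the medium and DMSO arrays. The GSK-J4 minus GSK-J5 difference of Abcb1b exceeded that of Abcb1a by 1.34, and the gap between the genes was 1.15 with DMSO as the control and 1.23 with medium. These 3 gaps share the GSK-J4 array and are not independent. The coding sequences of the pair are closely related. Probe sequences were not examined here, so a contribution of one transcript to the probe set of the other was not tested.

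The promoters of the pair are shown because these neighbouring genes of the same function differed in their values. The RefSeq table used held promoters of 5 of the 7 pumps. Both are taken from it, build GRCm38.p6, on the plus strand of chromosome 5, and hold the 250 bases before the annotated start of the gene. The Abcb1b promoter is chr5:8797897-8798146, and that of Abcb1a is chr5:8566841-8567090. Capitals mark matches to 9 motifs searched on both strands.
Abcb1b: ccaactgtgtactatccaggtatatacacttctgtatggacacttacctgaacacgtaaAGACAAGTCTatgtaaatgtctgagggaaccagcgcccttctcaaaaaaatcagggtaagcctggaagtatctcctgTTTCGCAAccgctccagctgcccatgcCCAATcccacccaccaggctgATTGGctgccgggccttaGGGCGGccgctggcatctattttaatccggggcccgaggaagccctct
Abcb1a: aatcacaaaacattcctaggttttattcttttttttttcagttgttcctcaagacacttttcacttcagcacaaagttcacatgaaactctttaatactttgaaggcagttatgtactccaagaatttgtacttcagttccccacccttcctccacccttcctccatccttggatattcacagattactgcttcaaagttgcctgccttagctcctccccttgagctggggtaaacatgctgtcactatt

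In the Abcb1b promoter 5 matches were found, none overlapping another. From the far end they are a p53 half-site (191 to 182 bases before the start), the C/EBP motif TTGCGNAA on the minus strand (114 to 107), CCAAT on the plus strand (87 to 83), CCAAT on the minus strand (66 to 62), and the GC box GGGCGG (48 to 43). The Abcb1a promoter held 0 matches to any of the 9. Of all 32851 promoter windows of this length in the RefSeq table, 7.13% hold a p53 half-site, 0.67% the C/EBP motif, 33.8% CCAAT and 32.7% the GC box. The other 5 motifs, searched without a match in either promoter, were AP-1 (TGANTCA, in 6.75% of windows), the C/EBP-ATF composite TGATGNAAT (0.816%), the antioxidant response element TGACNNNGC (10.2%), the E-box CACGTG (6.02%) and the CRE TGACGTCA (1.55%). The GC content was 52.8% for Abcb1b and 40.4% for Abcb1a, and the median over all windows was 52.4%. Promoters of some other pumps that were not called held matches too. Those of Abcg2 matched the GC box and CRE, and those of Abcc4 the GC box, antioxidant response element and E-box. For Abcc5, the remaining pump with a promoter, no match was found. The promoter of Abcb4, the next protein-coding gene on the array after Abcb1b, matched the GC box and CCAAT. None of these matched the p53 half-site or the C/EBP motif. A match is a string of letters and does not show binding. The motifs were chosen with the expression values known.

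None of the 4 protein-coding genes read on either side of Abcb1b on chromosome 5 differed by as much. Abcb1b was picked out for its difference. Only 20 of the 13308 counted genes, Abcb1b among them, had a margin that large, so nothing is read from this. Genes were ordered by start position in the RefSeq table, with protein-coding genes on the array only. The 4 before Abcb1b are Dbf4, Slc25a40, Rundc3b and Abcb1a, and the 4 after it are Abcb4, Crot, Tmem243 and Dmtf1. Abcb4, the phosphatidylcholine floppase of bile and the closest relative of the P-glycoprotein genes, read 5.47 in GSK-J4, against 5.56 in GSK-J5, 5.40 in DMSO and 5.35 in medium. It was below the filter on all 4 arrays and was not counted. Among the other 6 neighbours that are no pump, the largest margin was 0.29, for Dmtf1, a transcription factor that acts upstream of p53 through Arf. Slc25a40, a mitochondrial carrier, had a margin of 0.22, and Crot, a peroxisomal carnitine acyltransferase, one of −0.07.

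**Figure D2:**
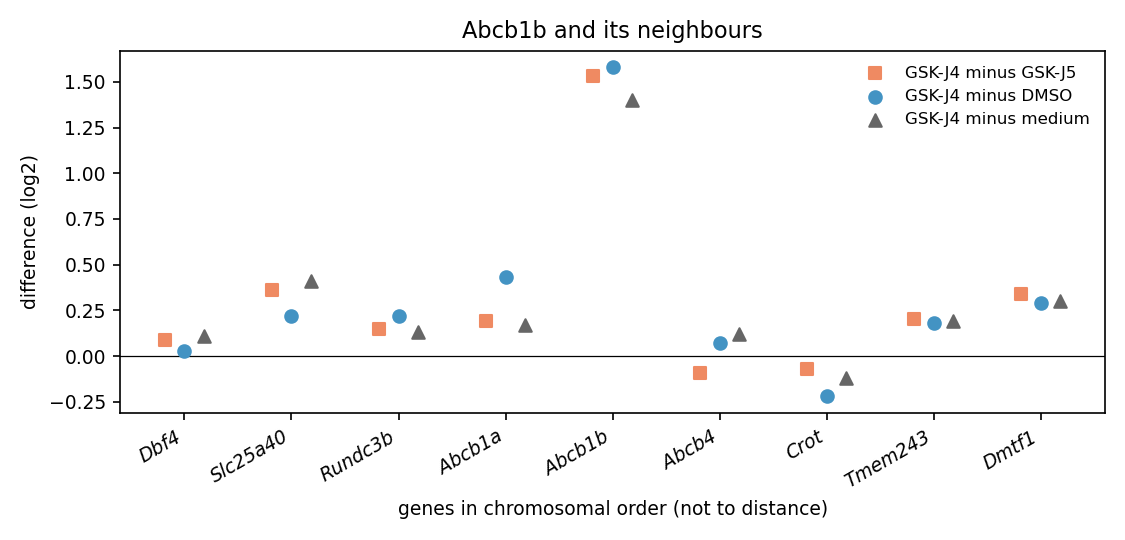
Difference (log2) of the GSK-J4 array from each control array, 3 points per gene, for Abcb1b and the 4 measured protein-coding genes on either side of it in chromosomal order, not drawn to distance. Abcb1b lies at 1.40 to 1.58, and its neighbours lie between −0.22 and 0.43.

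Among the pumps, the multidrug resistance protein genes of the Abcc group held no called gene. Over all counted genes only 2.21% were called higher and 0.842% lower, so nothing is read from this. Abcc1, which encodes MRP1, an exporter of glutathione conjugates, read 9.90 in GSK-J4, against 10.01 in GSK-J5, 9.98 in DMSO and 10.00 in medium. The GSK-J4 array was the lowest by a margin of −0.08, and the controls spanned 0.03. Abcc4, which encodes MRP4, an exporter of cyclic nucleotides and prostaglandins, read 11.21 in GSK-J4, against 11.10 in GSK-J5, 10.94 in DMSO and 11.10 in medium. The GSK-J4 array was the highest by 0.11, less than the 0.16 spanned by the controls.

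Abcc5, which encodes MRP5, a further exporter of cyclic nucleotides, read 9.75 in GSK-J4, against 9.66 in GSK-J5, 9.67 in DMSO and 9.76 in medium, so GSK-J4 lay within the range of the controls. Abcc3, which encodes MRP3, a basolateral exporter of conjugated bile acids in liver and gut, read 6.23 in GSK-J4, against 6.25 in GSK-J5, 6.44 in DMSO and 6.03 in medium. It was under the filter level on every array and not shown to be above background. Its controls spanned 0.41, the widest of the 7 genes.

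Abcg2 read 9.66 in GSK-J4, against 9.88 in GSK-J5, 9.85 in DMSO and 9.87 in medium. GSK-J4 was the lowest, with a margin of −0.19, and the controls lay within 0.03 of each other. The difference from GSK-J5 was −0.22, a level 0.859 times that of GSK-J5. That is outside the spread of its own controls, yet the margin is far from the 1.5-fold rule. In genes of similar brightness the 3 controls spanned 0.11 at the median and at most 0.25 in 95%.

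Across the 6 pumps other than Abcb1b, the 18 differences of GSK-J4 from a control ran between −0.22 and 0.43. The 21 differences among controls over all 7 pumps ran between −0.26 and 0.41. The difference of Abcb1b exceeded that of each other pump by 1.15 to 1.79, whichever control was used. DMSO was the lowest of the 4 arrays for Abcb1b, Abcb1a and Abcc4, and the highest for Abcc3. GSK-J5 minus DMSO was 0.24 for Abcb1a, −0.19 for Abcc3 and 0.16 for Abcc4, and between 0.05 and −0.01 for the other 4.

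**Figure D3:**
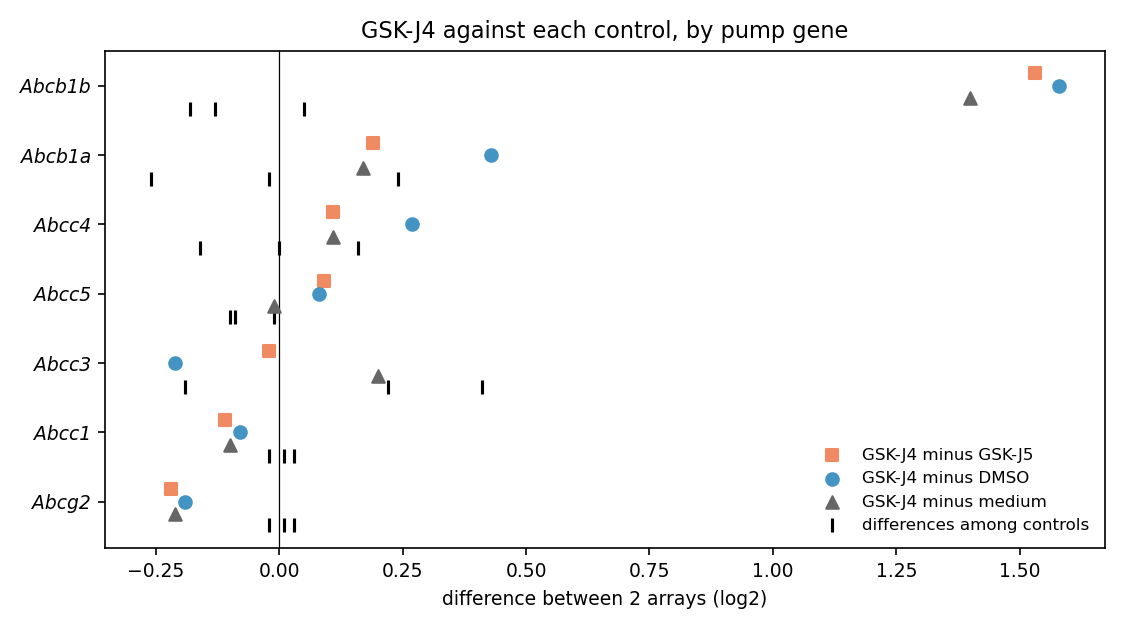
Difference between 2 arrays (log2) for each pump gene, ordered from top to bottom by GSK-J4 minus the mean of the controls; squares, circles and triangles are GSK-J4 minus GSK-J5, DMSO and medium, and the black ticks are the 3 differences among controls. The symbols of Abcb1b lie at 1.40 to 1.58, and those of the other genes lie between −0.22 and 0.43.

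The rest of the ABC family differed less than Abcb1b. The family list held 45 further genes, of which 43 were measured and 22 counted. None was called in either direction at 1.5-fold, beside 2.21% higher and 0.842% lower among all counted genes, and the difference of GSK-J4 from GSK-J5 had a median of 0.02 over the 22 counted and −0.06 over the 43 measured (0.00 over all counted genes). By any amount 8 of the 22 lay above all 3 controls and 6 below, where 38.0% of all counted genes lay above and 35.5% below. Tap1, a subunit of the peptide transporter that supplies MHC class I, read 8.56 in GSK-J4, against 7.83 in GSK-J5, 7.98 in DMSO and 7.89 in medium, and its margin of 0.58 fell just short of the rule.

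Below Tap1 came 3 genes of the Abca group, whose members move lipids. Abca5 had a margin of 0.52, Abca3, the lipid transporter of lung surfactant, one of 0.47, and Abca1, the cholesterol exporter, one of 0.42. Abca1 read 8.35 in GSK-J4, against 7.93 in GSK-J5, 7.76 in DMSO and 7.91 in medium. The lowest was Abcb10, a transporter of the inner mitochondrial membrane, which read 9.51 in GSK-J4, against 9.87 in GSK-J5, 9.81 in DMSO and 9.90 in medium (margin −0.30). Then followed Abcc6 (−0.07), Abcg4 (−0.06), and Abce1 and Abcf1 (−0.04 each). Abce1 recycles ribosomes and transports nothing.

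**Figure D4:**
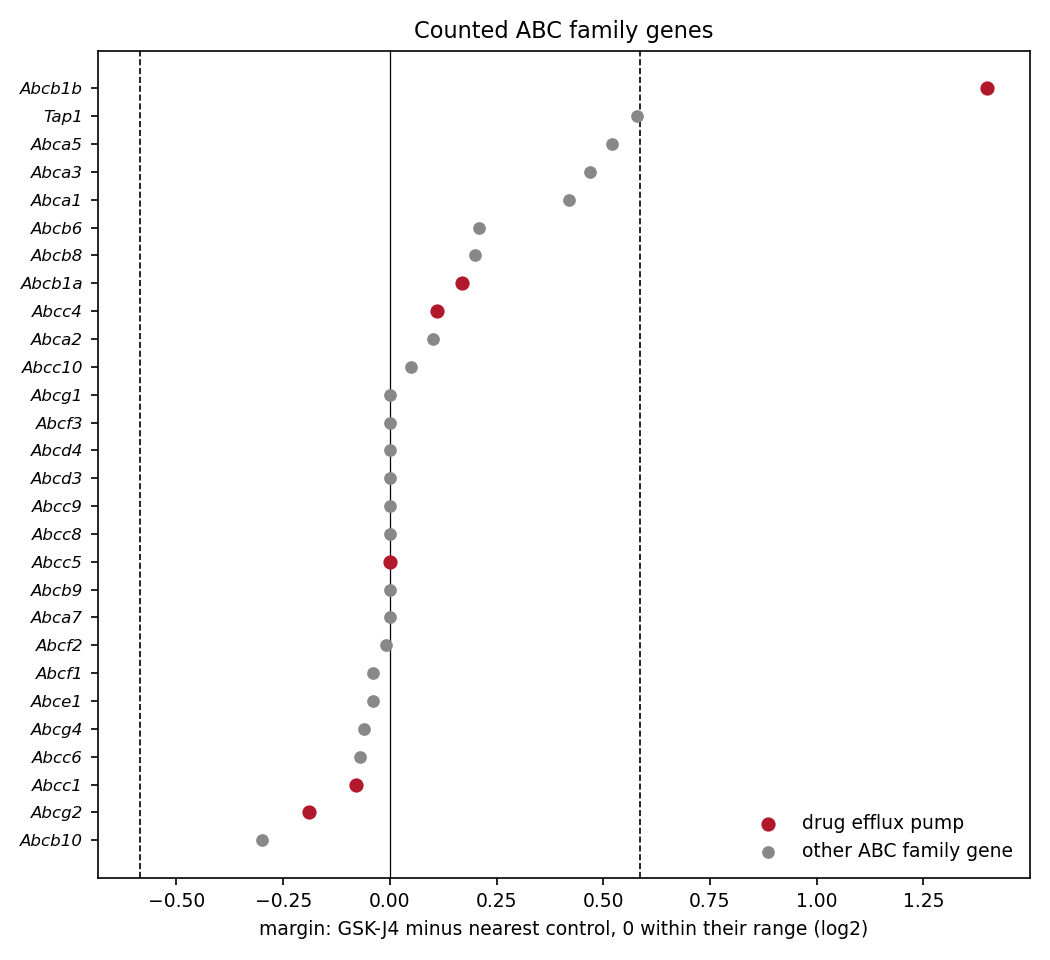
Margin (log2) of the GSK-J4 array to its nearest control, 0 within the range of the controls, for the 28 counted ABC family genes, with drug efflux pumps in red and other members in grey; dashed lines mark 1.5-fold. Abcb1b lies at 1.40 beyond the upper line, Tap1 at 0.58 just inside it, and Abcb10 is the lowest at −0.30.

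Genes that handle drugs in other ways were read beside the pumps from lists. The list of solute carriers of drugs and the major vault protein gene held 22 genes, of which 19, all carriers, were measured and 12 counted. Of the 12, 1 was called higher and 0 lower, beside 2.21% and 0.842% of all counted genes, and the difference from GSK-J5 had a median of 0.16 over the 12 and −0.08 over the 19 measured. The called gene was Slco4a1, an uptake carrier of thyroid hormone and other organic anions, which read 9.16 in GSK-J4, against 8.50 in GSK-J5, 8.50 in DMSO and 8.54 in medium. Of 50 genes of drug metabolism and glutathione conjugation 42 were measured and 26 counted. Of the 26, 1 was called higher and 0 lower, with a median of −0.01. That gene was Ephx1, the microsomal epoxide hydrolase, with a margin of 1.19. The lowest of the list was the quinone reductase gene Nqo2 at −0.51.

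Of 28 regulators that have been linked to pump genes 25 were measured and 19 counted. Of the 19, 2 were called higher and 0 lower, beside 2.21% and 0.842% of all counted genes, with a median of 0.09. Cebpb, a bZIP transcription factor, read 8.65 in GSK-J4, against 7.79 in GSK-J5, 7.69 in DMSO and 7.54 in medium (margin 0.86). Foxo3, a forkhead factor, read 9.95 in GSK-J4, against 9.25 in GSK-J5, 9.03 in DMSO and 9.05 in medium (margin 0.70). The xenobiotic receptor genes Nr1i2, which encodes PXR, and Nr1i3, which encodes CAR, were below the filter. Of 15 listed and 11 counted genes for membrane anchors, kinases and turnover factors of P-glycoprotein, none was called, beside those same shares, with a median of −0.04. Pim1, a kinase that stabilises several ABC pumps in human cells, had a margin of −0.20, and Ezr, the actin linker ezrin, one of −0.09.

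The genes whose pattern was most like that of Abcb1b were found by the root mean square distance over the 4 arrays, each gene taken relative to the mean of its own 3 controls. The nearest was Atf3, a stress-induced bZIP factor, at a distance of 0.03. It read 9.0 in GSK-J4, against 7.52 in GSK-J5, 7.47 in DMSO and 7.67 in medium. Next came Apobec1, an RNA-editing cytidine deaminase (0.045), Laptm5, a lysosomal membrane protein of blood cells (0.054), and Htr1b, a serotonin receptor (0.054). Hhip, a hedgehog-binding protein, followed (0.061). All 5 are called higher in GSK-J4, as the measure of likeness requires, and with 4 arrays such likeness is a description only.

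Markers of the cells in the EBs were read beside these values. None of the 38 markers was called, but only 21 were counted and could be, and over all counted genes 2.21% were called higher and 0.842% lower. Summed levels are the log2 of the sum of unlogged values, so the brightest markers weigh most. The summed level of 8 stem cell markers was 14.91 in GSK-J4, while the controls had 14.97 to 15.01. Their margins ran between −0.36, for Tdgf1, a co-receptor of Nodal, and 0.25, for the transcription factor Klf4. The 11 feeder fibroblast markers summed to 10.88 in GSK-J4, while the controls had 11.03 to 11.09, and 5 of the 11 were below the filter. The 10 endoderm markers summed to 10.11 in GSK-J4, against 10.21 to 10.28, with 5 below the filter.

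The 9 blood and endothelial markers summed to 11.51 in GSK-J4, above the 11.18 to 11.25 of the controls. Most of that sum is the brightest of them, Pecam1. It read 11.17 in GSK-J4, against 10.72 in GSK-J5, 10.79 in DMSO and 10.80 in medium. Of these 9, 6 were below the filter, among them Ptprc, the pan-leukocyte CD45 gene, and Cdh5, which defines endothelium and read 6.29 in GSK-J4, against 6.69 in GSK-J5, 6.68 in DMSO and 6.64 in medium. The 3 counted ones went different ways. Pecam1, which embryonic stem cells express too, had a margin of 0.37, and Tek, the angiopoietin receptor gene, one of 0.39. Cldn5, a tight junction gene of endothelium, had one of −0.54. The part of these cell types in the Abcb1b difference was not tested.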

How the data were processed

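Biotin-labelled cDNA from R1 embryoid bodies was measured on Affymetrix arrays, 1 for each of 4 treatments. Per the submitters' processing notes, the deposited log2 values come from RMA (background correction, a shared intensity distribution, 1 value per probe set) in Affymetrix Expression Console 1.2.1.20. Base 2 was inferred from the range, 2.20 to 14.48, since no source used here states it. Array medians over 41345 probe sets ran between 6.63 and 6.65. Detection above background was not examined. Precision is limited by the number of arrays.

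Of the probe sets 23521 had a single symbol in the platform annotation and 1814 several, which were left out. Where a gene had several probe sets, the one with the highest mean was used. The margin rule was applied in Python 3.11.15 with pandas 2.3.3 and checked on simulated arrays. Named genes were all pumps, the called genes of each pathway list (or those with the largest margins), the farthest ABC family genes and the 6 nearest to Abcb1b by pattern, 1 of which is not reported here. Markers, receptors and neighbours were named after their values were seen. The members, lists and rules were chosen with earlier results of these data known. Alternatives were other filters, folds, rescalings, the median over probe sets and leaving out each control array.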

Additional observations from a re-analysis of the deposited data

How the results depend on the processing

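Under all 11 alternatives 1 pump gene was higher and 0 lower in GSK-J4. The other folds could not change these counts. The margin of Abcb1b was 1.40, and those of the other pumps lay between −0.19 and 0.17. The margin of Abcb1b ranged from 1.37 to 1.53 over 7 alternatives, and was 1.40 to 1.53 with a control array left out. Not all of these could lower it. Each pump has 1 probe set, so the median over probe sets left every pump value as it was. Medium was the closest control of Abcb1b, so leaving out GSK-J5 or DMSO could not change its margin. Leaving out medium could only raise it. The rescalings gave 1.37 to 1.39. The excess of Abcb1b over Abcb1a against GSK-J5 was 1.33 to 1.37. Of 133 recomputed values of single pumps 1 changed sign, Abcc3 against GSK-J5, at 0.05 under loess in place of −0.02. The counts over all genes depended on the thresholds: 294 higher and 112 lower became 955 and 527 with a margin smaller than 1.5-fold and 76 and 14 at 2-fold, and 191 genes were higher with a filter at the 60th percentile. Leaving out a control array gave 320 to 341 higher and 129 to 141 lower. For the other ABC family genes, settings added after the values were seen gave 4 higher with the smaller margin (Abca1, Abca3, Abca5 and Tap1), 1 (Tap1) after median centring, and 0 to 1 with a control left out, Tap1 being called without DMSO. The shift that a rescaling gave to GSK-J4 minus GSK-J5 of each counted gene had a median of at most 0.045 in size. No paired analysis was possible because each treatment has 1 array.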

Other observations

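Tap1 was the ABC family gene nearest to Abcb1b by margin, so the genes that work with it in antigen presentation were read after its value was seen. Tap2, with which it forms the peptide transporter, was below the filter, at 5.87 in GSK-J4, against 5.90 in GSK-J5, 5.97 in DMSO and 5.78 in medium. B2m, the light chain of MHC class I, read 10.91 in GSK-J4, against 10.47 in GSK-J5, 10.62 in DMSO and 10.67 in medium. Tapbp, the peptide-loading chaperone tapasin, read 9.26 in GSK-J4, against 9.43 on each of the 3 controls. The immunoproteasome subunit gene Psmb10 was the one called among the genes read, which also held H2-K1, Calr, Canx, Pdia3, Erap1 and Nlrc5. Genes below the filter, Nlrc5 among them, could not be called. Over all counted genes 2.21% were called higher and 0.842% lower, so nothing is read from this. Psmb10 read 9.29 in GSK-J4, against 10.09 in GSK-J5, 10.07 in DMSO and 10.04 in medium, with a margin of −0.75. Its partner genes Psmb8 and Psmb9 had margins of −0.15 and 0, and Psmb9, the neighbour of Tap1, was below the filter. Irf1, an interferon-responsive activator of these genes, had a margin of −0.36.

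Abcb5, a pump gene of the same group as Abcb1b that was on none of the lists, read 5.54 in GSK-J4, against 5.95 in GSK-J5, 5.92 in DMSO and 5.66 in medium, below the filter on every array.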
